A study of Mus musculus with 6 samples.

Results

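The glucocorticoid receptor gene Nr3c1 and 5 genes that glucocorticoids are well known to induce, Tsc22d3, Fkbp5, Per1, Sgk1 and Ddit4, were followed in regulatory T cells (Tregs) sorted from mouse tumors. The 6 genes were chosen by name, with earlier results of the same anti-PD-1 comparison known, out of the 23420 genes of the deposited count table. Their differences between treatments are therefore given as a description. All 6 passed the filter on low counts, as did 10352 genes in all. Of the 6, Tsc22d3 was the gene with the largest difference, at 1.87 times the untreated level after anti-PD-1, while the receptor gene stood at 0.867 times. Per1 was slightly higher in every anti-PD-1 library, and Nr3c1, Fkbp5, Sgk1 and Ddit4 overlapped between the treatments.

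The anti-PD-1 group was 3 libraries (4, 5 and 6) of GFP-positive Tregs from T11 tumors of BALB/c mice given 200 µg of the antibody J43 into the peritoneum 2 times a week. The untreated group was 3 libraries (1, 2 and 3) of the same cells from mice that received no antibody, and the labels name no control antibody for them. All mice carried the Foxp3-GFP reporter, which marks cells that express the Treg lineage factor, received 10000 T11 cells, a transplanted line modelling claudin-low triple-negative breast cancer, and were sampled at a tumor size of 150 mm2. Whether each library holds cells of a different mouse is not in the labels, so p-values and SDs cover the spread from library to library, part or all of which may be technical.

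Glucocorticoids are steroid hormones of the adrenal gland, and corticosterone is the main one in mice. Their receptor is a nuclear receptor held in the cytoplasm by the chaperone HSP90 and its partners. When a hormone binds, it moves to the nucleus, where it raises genes near glucocorticoid response elements and restrains NF-κB and AP-1, by which it dampens T cell activation. Tsc22d3 encodes GILZ, the glucocorticoid-induced leucine zipper protein, which binds NF-κB and AP-1 subunits. Fkbp5 encodes FKBP51, an HSP90 partner that lowers the receptor's affinity for hormone and so closes a feedback loop. Per1 is a repressor of the circadian clock, Sgk1 encodes a kinase of the PI3K pathway that acts on ion channels and FOXO factors, and Ddit4 encodes REDD1, an inhibitor of the growth kinase complex mTORC1. Each induced gene also answers to other inputs, such as FOXO factors for Tsc22d3, cyclic AMP and the clock for Per1, osmotic and growth factor signals for Sgk1, and hypoxia for Ddit4.

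Sequences upstream of annotated starts were read from RefSeq (GRCm38.p6, the build that mm10 names), whose table held 13 promoters of 5 of the genes: 6 for Sgk1, 3 for Tsc22d3, 2 for Per1 and 1 each for Fkbp5 and Ddit4. They are shown because a response element is the part of the DNA through which the receptor acts, and its presence can be set beside each gene's values. The reference is not of the BALB/c strain. Each line gives the 250 bases before a start, 5′ to 3′ on the gene's strand. Capitals mark the full response element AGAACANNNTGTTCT, its half-site AGAACA and the E-box CACGTG bound by clock factors, each searched on both strands.
Sgk1, start 5, chr10:21993640-21993889, plus strand: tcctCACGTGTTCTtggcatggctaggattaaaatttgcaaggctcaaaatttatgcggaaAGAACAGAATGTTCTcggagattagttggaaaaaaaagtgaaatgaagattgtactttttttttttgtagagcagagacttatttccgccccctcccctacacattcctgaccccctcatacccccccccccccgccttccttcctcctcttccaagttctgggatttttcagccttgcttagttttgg
Tsc22d3, start farthest upstream, chrX:140600523-140600772, minus strand: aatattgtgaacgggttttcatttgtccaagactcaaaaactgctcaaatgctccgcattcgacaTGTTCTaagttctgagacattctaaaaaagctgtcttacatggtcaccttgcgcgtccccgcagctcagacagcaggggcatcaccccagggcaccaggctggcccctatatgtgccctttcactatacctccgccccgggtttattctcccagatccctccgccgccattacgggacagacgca
Tsc22d3, start farthest downstream, chrX:140542669-140542918, minus strand: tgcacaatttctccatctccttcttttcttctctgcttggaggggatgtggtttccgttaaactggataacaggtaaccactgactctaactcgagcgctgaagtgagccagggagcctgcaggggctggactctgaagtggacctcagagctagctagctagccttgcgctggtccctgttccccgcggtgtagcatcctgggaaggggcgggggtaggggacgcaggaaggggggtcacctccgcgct
Fkbp5, chr17:28486150-28486399, minus strand: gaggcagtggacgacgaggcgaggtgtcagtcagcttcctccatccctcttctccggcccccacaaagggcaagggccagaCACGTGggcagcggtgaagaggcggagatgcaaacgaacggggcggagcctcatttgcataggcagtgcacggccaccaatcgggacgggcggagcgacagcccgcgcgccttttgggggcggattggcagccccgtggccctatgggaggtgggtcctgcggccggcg
Per1, start 1, chr11:69098699-69098948, plus strand: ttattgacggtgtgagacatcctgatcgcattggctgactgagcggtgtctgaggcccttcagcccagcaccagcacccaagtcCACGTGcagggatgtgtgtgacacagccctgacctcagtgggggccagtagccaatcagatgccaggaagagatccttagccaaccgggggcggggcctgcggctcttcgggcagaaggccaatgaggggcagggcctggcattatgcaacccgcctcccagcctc

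The full response element, with no mismatch, was found in 1 of the 13 promoters, that of Sgk1 start 5 (of 6, counted along the strand), and in 3 of all 32851 promoters of the table (0.00913%). In Sgk1 the element, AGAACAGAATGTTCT, lies at chr10:21993701-21993715, 189 bases before start 5 and 965 bases before start 6. It contains the half-site on each strand. A further half-site near the 5′ end of the same line overlaps an E-box. With up to 2 mismatches the element was found in 2 of the 13 promoters, both of Sgk1, against 1.84% of all promoters. The half-site was found in 4 of the 13, against 19.0% of all promoters. Of the 4, 1 was the Tsc22d3 start farthest upstream and the others were starts 1, 4 and 5 of Sgk1, which has 6 of the 13 promoters. The E-box was found in 3, those of Fkbp5, Per1 and Sgk1 printed above, against 7.15% of all. No window of the 13 held the cyclic AMP response element TGACGTCA (1.79% of all) or the forkhead site GTAAACA (3.65% of all), while the GC-box GGGCGG bound by Sp1 and KLF factors stood in 8 (35.7% of all). Windows of 300 bases around starts leave out introns and distant enhancers, and the counts per gene do not tell which start was used.

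The receptor gene was abundant in all libraries. Nr3c1 had 849, 692 and 628 CPM (scaled by edgeR's TMM method) after anti-PD-1 (libraries 4, 5 and 6), against 949, 723 and 830 CPM in untreated Tregs (libraries 1, 2 and 3). The highest value was that of untreated library 1 and the lowest that of anti-PD-1 library 6, and the groups overlapped. Means were 723 ± 114 CPM after anti-PD-1 and 834 ± 113 CPM untreated (SD, n = 3 each), a log2 fold change of -0.21 ± 0.15 (SE) with a 95% interval from -0.52 to 0.10. It ran from -0.34 without anti-PD-1 library 4 to -0.10 without untreated library 1. The interval includes 0 and leaves out any fall of the receptor mRNA to 0.5 times the untreated level. Nr3c1 counts ran from 3040 to 5915 per library, so counting error was at most 1.81%. The spread within groups was 9.36 times the root mean square counting error of the group's libraries after anti-PD-1 and 9.42 times untreated.

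Tsc22d3 (chrX:140539529-140600522 in mm10, minus strand) had the largest difference of the 6. It stood at 251, 186 and 257 CPM after anti-PD-1 (libraries 4, 5 and 6), against 93.7, 111 and 167 CPM in untreated Tregs (libraries 1, 2 and 3). Every anti-PD-1 library was above every untreated library, with the smallest gap between anti-PD-1 library 5 and untreated library 3. The means were 231 ± 39.0 CPM after anti-PD-1 and 124 ± 38.2 CPM untreated (SD, n = 3 each). The log2 fold change was 0.91 ± 0.20 (SE, 95% interval 0.50 to 1.31), which placed the gene at rank 13 of 10352 by unadjusted p, and 5.51% of tested genes had a larger positive value. In edgeR's quasi-likelihood test over all genes it did not pass an adjusted p of 0.05 (Benjamini-Hochberg adjusted p = 0.0971). It passed with DESeq2 (adjusted p = 0.0271), without a filter on low counts (0.00105) and without untreated library 3 (0.0261, log2 fold change 1.18), and its adjusted p ran from 0.00105 to 0.488 over 17 alternatives.

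**Figure D1:**
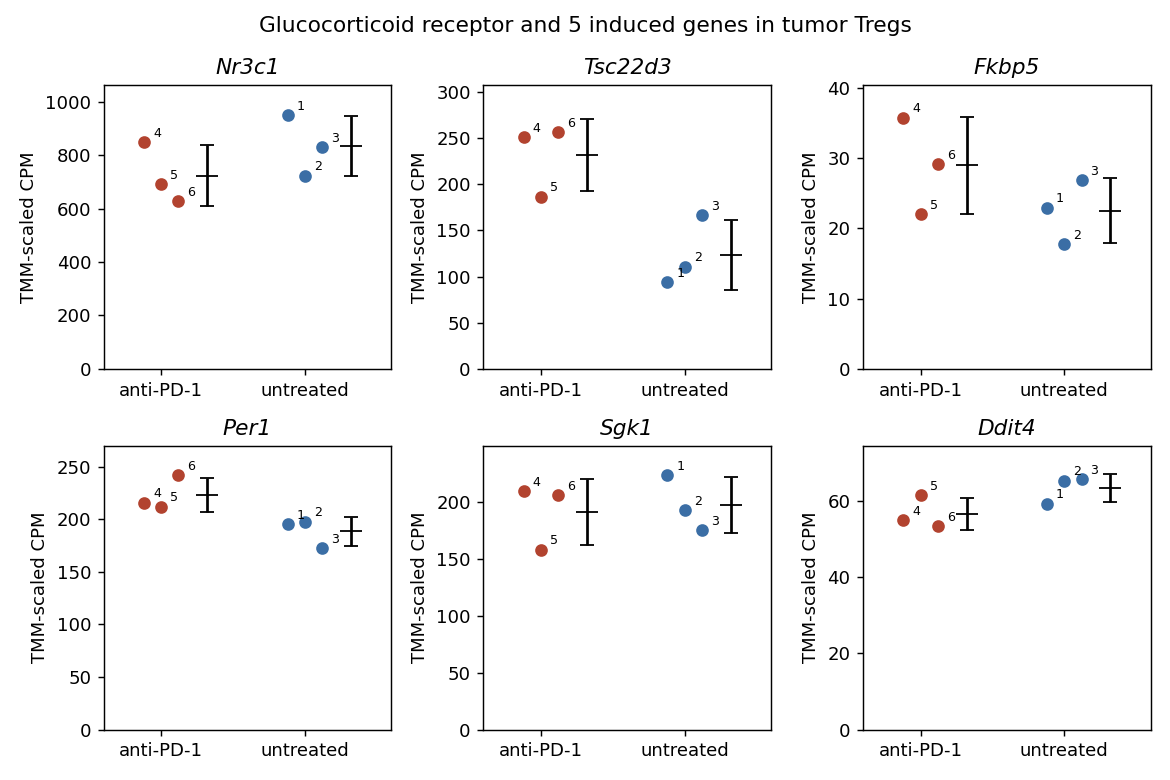
TMM-scaled CPM of the 6 genes in each library, with anti-PD-1 libraries (red) left of untreated libraries (blue), library numbers beside the points, and black bars for mean ± SD (n = 3). Tsc22d3 is at 186 to 257 CPM after anti-PD-1 and 93.7 to 167 CPM untreated, and Per1 is the other gene whose groups do not overlap.

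Fkbp5, the feedback gene (chr17:28399095-28486112, minus strand), was the least abundant of the 6. It had 35.7, 22.0 and 29.1 CPM after anti-PD-1 (libraries 4, 5 and 6), against 22.9, 17.7 and 26.9 CPM in untreated Tregs (libraries 1, 2 and 3). Anti-PD-1 libraries 4 and 6 were the highest, but library 5 lay below 2 of the untreated libraries. The log2 fold change of 0.36 ± 0.31 (SE) had a 95% interval from -0.28 to 1.01, wide enough to hold both no difference and the value of Tsc22d3, and ran from 0.18 without anti-PD-1 library 4 to 0.53 without anti-PD-1 library 5. With 99 to 188 counts per library, counting error reached 10.05%. The spread within groups was 2.78 times the root mean square counting error after anti-PD-1 and 2.31 times untreated.

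Per1 (chr11:69098956-69109957, plus strand) had 216, 212 and 242 CPM after anti-PD-1 (libraries 4, 5 and 6), against 195, 198 and 173 CPM in untreated Tregs (libraries 1, 2 and 3). All 3 anti-PD-1 values lay above all 3 untreated ones, by a small step. The means were 223 ± 16.3 CPM after anti-PD-1 and 189 ± 14.0 CPM untreated (SD, n = 3 each), and the log2 fold change was 0.24 ± 0.16 (SE, 95% interval -0.08 to 0.56). Of all tested genes, 28.1% had a larger positive fold change than Per1.

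Sgk1 (chr10:21882184-21999902, plus strand), the gene with the full response element in the sequences above, had 210, 158 and 206 CPM after anti-PD-1 (libraries 4, 5 and 6), against 224, 193 and 175 CPM in untreated Tregs (libraries 1, 2 and 3). The extremes of the 6 values, 158 and 224 CPM, belonged to anti-PD-1 library 5 and untreated library 1, and the groups overlapped. Its log2 fold change was -0.04 ± 0.17 (SE, 95% interval -0.39 to 0.30), and the sign turned without anti-PD-1 library 5 (0.08), without untreated library 1 (0.06) and with limma-voom quality weights (0.02). Ddit4 (chr10:59949675-59951770, minus strand) had 54.9, 61.4 and 53.3 CPM after anti-PD-1 (libraries 4, 5 and 6), against 59.2, 65.2 and 65.6 CPM in untreated Tregs (libraries 1, 2 and 3). Anti-PD-1 library 5 lay between the untreated values and the other two anti-PD-1 libraries below them. Its log2 fold change was -0.16 ± 0.21 (SE, 95% interval -0.60 to 0.27), and its spread within groups was close to counting error, at 1.27 times after anti-PD-1 and 1.09 times untreated.

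**Figure D2:**
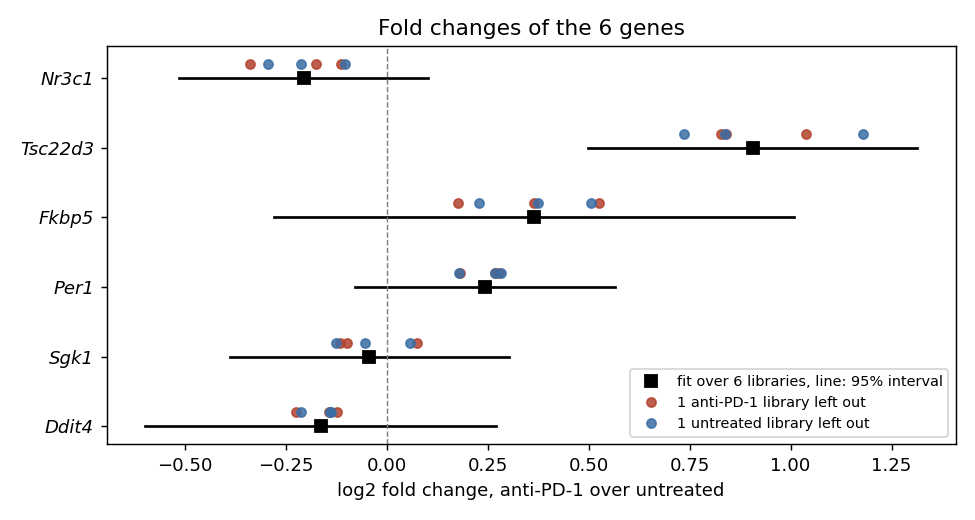
Log2 fold change of anti-PD-1 over untreated for each gene (black square) with its 95% interval (line), and above it the values when 1 anti-PD-1 library (red) or 1 untreated library (blue) was left out. Of the 6 intervals, that of Tsc22d3 (0.50 to 1.31) lies wholly above 0 and the others include 0.

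Of the whole set, 0 of the 6 genes passed edgeR's adjusted p of 0.05 (0.029% of all tested genes did), and 1, Tsc22d3, was under an unadjusted p of 0.05 (8.3% of all tested genes, 4.23% as higher and 4.07% as lower). DESeq2, which called 0.222% of genes, and edgeR without the filter, which called 0.352%, each called 1 of the 6, as did edgeR without untreated library 3 (0.0469% of genes). The groups did not overlap in 2 of the 6 genes, both higher after anti-PD-1, against 13.6% of all tested genes, 7.18% as higher and 6.44% as lower. The 6 log2 fold changes, 3 above and 3 below 0, had a median of 0.10, beside 0.0016 over all tested genes. Because the comparison was known when the genes were chosen, no inference is drawn from these counts.

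Library by library, the 5 induced genes did not vary as 1 block. Within the anti-PD-1 group, library 5 had the lowest value of Tsc22d3, Fkbp5, Per1 and Sgk1, and the highest of Ddit4. Within the untreated group, library 3 had the highest value of Tsc22d3, Fkbp5 and Ddit4 and the lowest of Per1 and Sgk1. The largest deviations from a gene's own mean were those of Tsc22d3, at -0.82 (log2) in untreated library 1 and 0.63 in anti-PD-1 library 6. Untreated library 1 also stood apart in a multidimensional scaling of all genes, at 2.40 on dimension 1 with the other libraries between -0.66 and -0.39. Without that library, log2 fold changes were 0.74 for Tsc22d3, 0.37 for Fkbp5, 0.27 for Per1, -0.10 for Nr3c1 and -0.21 for Ddit4, of the same sign as with it, while Sgk1 turned to 0.06 from below 0.

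**Figure D3:**
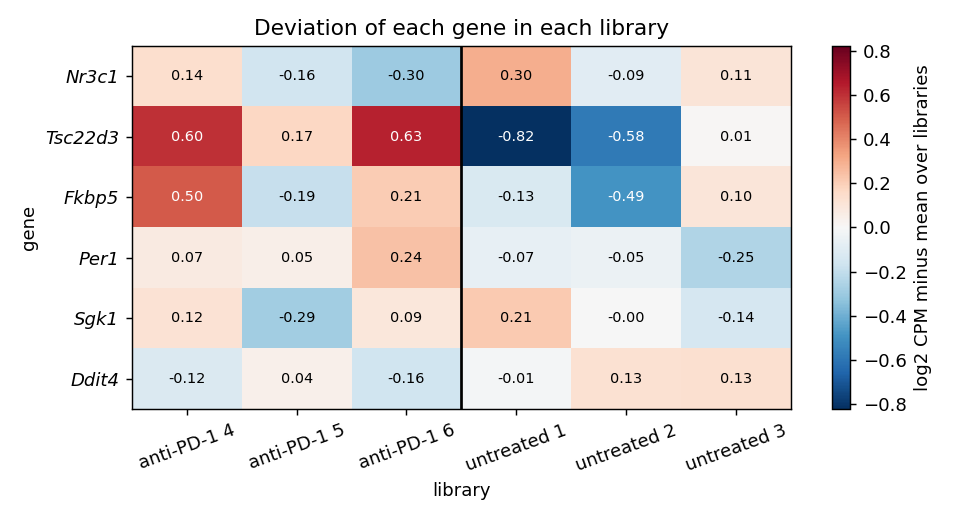
Log2 CPM of each gene in each library minus the gene's mean over the 6 libraries (red above, blue below), with anti-PD-1 libraries left of the line and untreated libraries right of it. Tsc22d3 runs from -0.82 to 0.63, and the other genes deviate less.

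A ratio of counts between genes of 1 library cannot be moved by how libraries are scaled. For each Nr3c1 count there were 0.296, 0.269 and 0.409 counts of Tsc22d3 in anti-PD-1 libraries 4, 5 and 6, against 0.0987, 0.153 and 0.201 in untreated libraries 1, 2 and 3. These ratios did not overlap, and their group means, 0.325 ± 0.0741 after anti-PD-1 and 0.151 ± 0.0510 untreated (SD, n = 3 each), differed 2.15-fold. Fkbp5, Per1, Sgk1 and Ddit4 counts per Nr3c1 count had mean ratios 1.48, 1.38, 1.13 and 1.03 times as high after anti-PD-1 as untreated, and each of the 4 overlapped between the groups. Nr3c1 itself stood at 0.867 times the untreated level, which raises all of these ratios after anti-PD-1. In the edgeR fit, without that division, Tsc22d3 stood at 1.87, Sgk1 at 0.970 and Ddit4 at 0.893 times the untreated level.

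Compared per kilobase of gene length, Nr3c1 was at 114 ± 18.0 CPM per kilobase after anti-PD-1 and 132 ± 17.8 untreated (SD, n = 3 each), and had the highest level of the 6 genes in 5 of 6 libraries. In anti-PD-1 library 6 Tsc22d3 exceeded it, at 103 against 99.2 CPM per kilobase. Tsc22d3 averaged 93.0 ± 15.7 CPM per kilobase after anti-PD-1 and 49.7 ± 15.3 untreated. It ranked 1 or 2 of the 6 in every anti-PD-1 library, and 4, 3 and 2 in untreated libraries 1, 2 and 3. Per1 (47.5 ± 3.46 after anti-PD-1 and 40.2 ± 2.97 untreated) and Sgk1 (46.0 ± 6.90 and 47.4 ± 5.91) lay within each other's spread in the anti-PD-1 group. Ddit4 (33.5 ± 2.55 after anti-PD-1 and 37.6 ± 2.12 untreated) lay within the spread of Per1 in the untreated group, where it was the higher of both in library 3. Fkbp5 was the lowest in all 6 libraries, at 8.26 ± 1.96 CPM per kilobase after anti-PD-1 and 6.42 ± 1.31 untreated.

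The rest of the pathway was read from lists that leave out the 6 genes, also chosen with earlier results known. Of 36 other genes that glucocorticoids induce in various tissues, 24 were tested. None of these passed edgeR's adjusted p in either direction (0.029% of all tested genes did). At an unadjusted p under 0.05 in edgeR 2 were higher, as were 4.23% of all tested genes. In sign, 16 lay above and 8 below 0 (50.1% of all tested genes lay above). Their median log2 fold change was 0.10, beside 0.0016 over all tested genes. Txnip, which encodes a thioredoxin inhibitor that limits glucose uptake, had 263, 278 and 166 CPM after anti-PD-1 (libraries 4, 5 and 6), against 94.2, 122 and 172 CPM in untreated Tregs (libraries 1, 2 and 3), a log2 fold change of 0.87 ± 0.21 (SE, edgeR adjusted p = 0.175). Of 17 alternatives it passed in 1, edgeR without the filter on low counts. Its groups overlapped through anti-PD-1 library 6 and untreated library 3. Zfp36, whose product tristetraprolin destabilises cytokine mRNAs, was at 567 ± 48.0 CPM after anti-PD-1 and 443 ± 42.8 CPM untreated (0.35 ± 0.14, adjusted p = 0.538), with no overlap. The insulin receptor substrate gene Irs2 stood at 0.49 ± 0.25 and the decoy receptor gene Il1r2, which captures IL-1, at -0.77 ± 0.40. Irs2 came to 0.19 without anti-PD-1 library 6 and 0.26 without untreated library 3, and Il1r2 to -0.28 without untreated library 1 and -0.44 without anti-PD-1 library 4. Other classic targets of the receptor had log2 fold changes of 0.11 for the MAP kinase phosphatase gene Dusp1, 0.18 for the NF-κB inhibitor gene Nfkbia and 0.21 each for Klf9 and the IL-7 receptor gene Il7r. Targets on the other side of 0 were the metallothionein genes Mt2 (-1.49 ± 0.93, at most 6.09 CPM) and Mt1 (-0.44 ± 0.55), the annexin gene Anxa1 (-0.36 ± 0.46) and Rgs2 (-0.24 ± 0.13, no overlap), which encodes a regulator of G protein signalling. Another 8 of the 36, among them Zbtb16, Pdk4 and the liver genes Tat, Pck1 and G6pc, had no count in any library.

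Of 26 genes that glucocorticoids repress, mostly cytokines, chemokines and enzymes of inflammation, 11 were tested. None passed in either direction, none had an unadjusted p under 0.05, 5 lay above and 6 below 0, and the median log2 fold change was -0.017, which was 0.23 when anti-PD-1 library 6 was left out and -0.13 when library 5 of that group was. The cytokine gene Ifng was at 15.1 ± 5.05 CPM after anti-PD-1 and 21.0 ± 3.32 CPM untreated (-0.48 ± 0.36, edgeR adjusted p = 0.761), and the chemokine gene Ccl5 at -0.34 ± 0.32. Cxcl2 (0.62 ± 0.63) and Ptgs2 (1.47 ± 1.19), the gene of cyclooxygenase-2, were close to the detection limit, with at most 11.8 CPM of Cxcl2 and 5.32 CPM of Ptgs2 in any library. These values rested on single libraries. Ptgs2 ran from 0.19 without anti-PD-1 library 4 to 4.57 without untreated library 3, and Cxcl2 from 0.068 without untreated library 1 to 1.06 without untreated library 2. Ccl5 ran from -0.89 without anti-PD-1 library 6 to -0.077 without anti-PD-1 library 4, and Ifng reached -0.78 without anti-PD-1 library 5. Il4, Il5 and Il12b had no count in any library.

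Genes that fold, transport or assist the receptor had medians near that of the 6 genes (0.10), beside 0.0016 over all tested genes. Among 14 tested chaperones and cochaperones none passed (0.029% of all tested genes did). Of the 14, 10 lay above 0 (50.1% of all tested genes did) and the median log2 fold change was 0.095. At an unadjusted p under 0.05 in edgeR, 1 was higher and 1 lower, beside 4.23% and 4.07% of all tested genes. The HSP40 gene Dnajb1 was at 189 ± 32.1 CPM after anti-PD-1 and 126 ± 20.5 CPM untreated, without overlap (0.59 ± 0.18, edgeR adjusted p = 0.419). Bag1, whose product inhibits the receptor in its HSP70 complex, stood at -0.49 ± 0.22, the ubiquitin ligase gene Stub1 at -0.69 ± 0.42 and the HSP40 gene Dnaja1 at 0.25 ± 0.16. Without untreated library 1, Bag1 stood at -0.23 and Stub1 at -0.42, and without untreated library 2, Dnaja1 stood at 0.16. Among 15 tested coregulators none passed either, with a median of 0.10. They included the arginine methyltransferase gene Carm1 (0.65 ± 0.33, no overlap), the corepressor gene Nrip1 (0.27 ± 0.15), the acetyltransferase gene Crebbp (0.15 ± 0.14) and the coactivator gene Ncoa3 (0.14 ± 0.14, no overlap). Carm1 came to 0.34 without anti-PD-1 library 6.

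Of 20 genes of steroid supply and other steroid receptors, 8 were tested and none passed. Hsd11b1, whose product regenerates active glucocorticoid from its inert keto form, had 23.9, 15.8 and 24.6 CPM after anti-PD-1 (libraries 4, 5 and 6), against 33.2, 30.8 and 28.4 CPM in untreated Tregs (libraries 1, 2 and 3). Each anti-PD-1 library was below each untreated one, at a log2 fold change of -0.52 ± 0.30 (SE, edgeR adjusted p = 0.686), or -0.35 without anti-PD-1 library 5. The mineralocorticoid receptor gene Nr3c2, whose product also binds corticosterone, reached at most 7.98 CPM after anti-PD-1 and 6.58 CPM untreated. The cholesterol transporter gene Star (-0.80 ± 0.74) was as scarce, at no more than 6.74 CPM in any library, and ran from -1.62 without anti-PD-1 library 5 to -0.32 without anti-PD-1 library 4. Cyp11b1, Cyp17a1, Cyp21a1 and Hsd3b1, enzymes of steroid synthesis, had no count in any library, and the side chain cleavage gene Cyp11a1 had 5 counts, all in untreated library 3.

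The circadian clock, in which Per1 acts, was read from its other genes. Of 18 tested, none passed, 8 lay above and 10 below 0, and the median log2 fold change was -0.067. Per2 (0.75 ± 0.84) and Per3 (0.59 ± 0.73), the paralogs of Per1, were scarce, with at most 4.75 CPM of Per2 and 6.64 CPM of Per3 in any library. Leaving out 1 library moved Per2 between 0.35 (anti-PD-1 library 6) and 1.66 (untreated library 2), and Per3 between 0.12 (untreated library 1) and 0.92 (untreated library 3). Nfil3, a repressor in the clock that also acts in lymphocytes, was at 93.0 ± 8.24 CPM after anti-PD-1 and 129 ± 27.7 CPM untreated, with no overlap (-0.47 ± 0.19, edgeR adjusted p = 0.551), or a log2 fold change of -0.27 without untreated library 2. Nr1d1 (1.07 ± 0.80) rested on anti-PD-1 library 5, which had 10.6 CPM, and without it stood at -0.19. Among 18 tested paralogs and partners of the 6 genes none passed, with a median of 0.13. They included Tsc22d1 (0.71 ± 0.46), a paralog of Tsc22d3, the transcription factor gene Foxo1 (0.19 ± 0.14), the prolyl isomerase gene Fkbp1a (0.36 ± 0.27) and Pdpk1 (0.19 ± 0.17), which encodes the kinase that activates SGK1. Leaving out 1 library moved Tsc22d1 between 0.33 (untreated library 3) and 1.17 (untreated library 1), Fkbp1a between 0.075 (untreated library 1) and 0.52 (untreated library 2), and Pdpk1 between 0.11 (anti-PD-1 library 5) and 0.33 (anti-PD-1 library 4). Over these 7 lists, 108 different genes were tested, 5 of them (4.63%) had an unadjusted p under 0.05 in edgeR, and the groups did not overlap in 9 (8.33%), beside 8.3% and 13.6% of all tested genes. DESeq2 and limma-voom passed none of the 108 either.

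**Figure D4:**
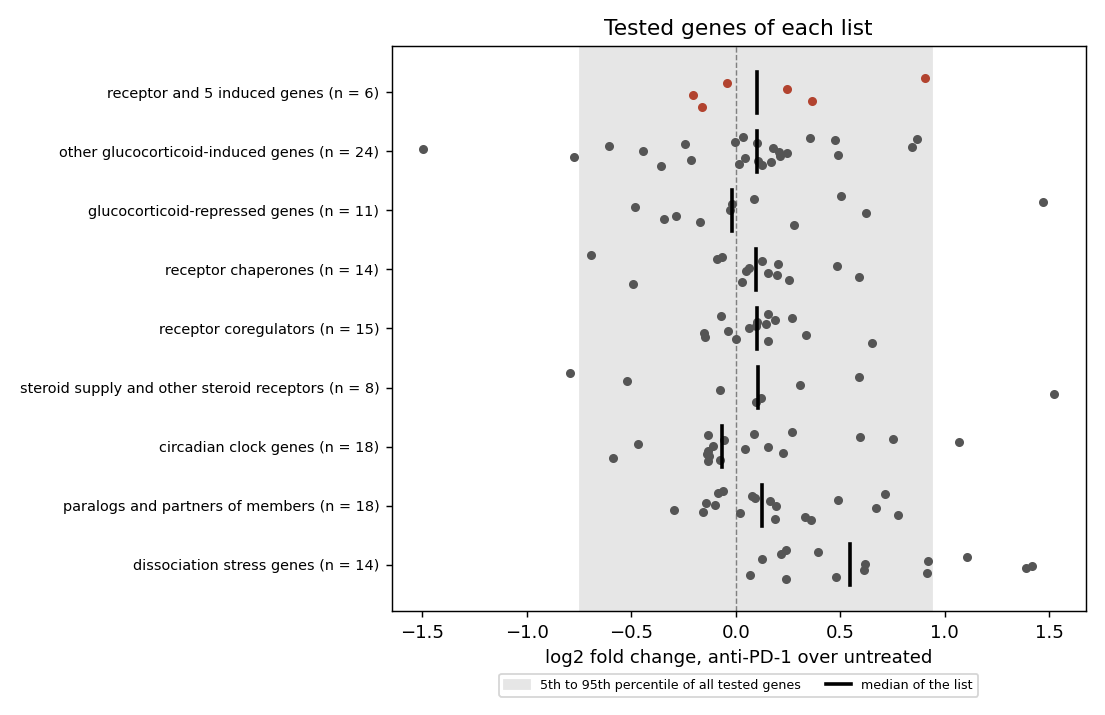
Log2 fold change (anti-PD-1 over untreated) of every tested gene in each list (points), with the list's median (bar) and the range from the 5th to the 95th percentile of all tested genes (grey, -0.74 to 0.94). Medians of the first 8 lists lie between -0.067 and 0.13, and that of the dissociation stress genes at 0.55.

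Of the 6 genes, Tsc22d3, Fkbp5 and Per1 lay above 0 and Nr3c1, Sgk1 and Ddit4 below it. Genes that respond to tissue dissociation and other stress were read as a further list. All 14 genes of that list, immediate early and heat shock genes, lay above 0 (50.1% of all tested genes did) with a median log2 fold change of 0.55, 1 of them, Jun, passed over all genes, 0.029% of which did (edgeR adjusted p = 0.0034, log2 fold change 1.11, with all 3 anti-PD-1 values above all 3 untreated ones), and none passed as lower. Without anti-PD-1 library 5, Jun too missed the threshold (adjusted p = 0.0539). Only Jun of the list passed with limma-voom without weights, with RLE scaling and with edgeR's older quasi-likelihood fit. The same held with TMM computed without Rn45s, Malat1 and ribosomal protein genes. DESeq2 passed 4 of the list (Fos, Hspa1a, Ier2 and Jun) and 23 genes in all, and limma-voom with quality weights 4 and 12. edgeR without robust shrinkage passed 3 of the list and 5 genes in all, and edgeR without the filter 5 and 52. Upper quartile scaling, library totals only and a mean of at least 5 CPM each passed Fos and Jun. In the edgeR fit with the filter, log2 fold changes were 0.91 ± 0.18 for Fos (adjusted p = 0.0658), 0.92 ± 0.19 for Ier2 (adjusted p = 0.0933) and 1.39 ± 0.30 for Hspa1a (adjusted p = 0.287), each without overlap. The list took 0.420% to 0.488% of counts in the anti-PD-1 libraries and 0.283% to 0.317% in the untreated libraries. Averaged over its genes, log2 CPM minus the gene's own mean was 0.19, 0.56 and 0.15 in anti-PD-1 libraries 4, 5 and 6. In untreated libraries 1, 2 and 3 this average was -0.25, -0.29 and -0.36. The part of the list in the values of the 6 genes was not tested.

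The cells carried the marks of Tregs in every library, with Foxp3 at 523 ± 53.6 CPM after anti-PD-1 and 451 ± 11.6 CPM untreated (SD, n = 3 each). Of 6 Treg markers, Foxp3 and Cd4 (0.18 ± 0.14) had log2 fold changes above 0, both with no overlap, and 4 lay below it. The 4 were the checkpoint receptor gene Ctla4 (-0.41 ± 0.13, no overlap), the IL-2 receptor gene Il2ra (-0.35 ± 0.16), the transcription factor gene Ikzf2 (-0.24 ± 0.13, no overlap) and Tnfrsf18 (-0.06 ± 0.17), which encodes GITR. None of the 6 passed edgeR's adjusted p (0.029% of all tested genes did). Ctla4 and Il2ra were lower at an unadjusted p under 0.05 in edgeR, as were 4.07% of all tested genes. The groups did not overlap in 2 markers as higher and 2 as lower, against 7.18% and 6.44% of all tested genes. The 6 markers together took 0.502% to 0.571% of counts after anti-PD-1 and 0.603% to 0.639% untreated. Of 9 tumor, epithelial and stromal markers, with Krt8 at 0 in all libraries, the share was 0.0141% to 0.0197% after anti-PD-1 and 0.0115% to 0.0135% untreated, most of it from Pecam1 and Fn1. Of 5 neutrophil markers, with S100a9 at 0, the share was 0.000153% to 0.000434% after anti-PD-1 and 0.00106% to 0.00207% untreated. Most of that share was from 1 gene, Ltf, the only one of the 5 that was tested. Ltf was at 2.64 ± 1.21 CPM after anti-PD-1 and 15.4 ± 4.43 CPM untreated (edgeR adjusted p = 0.136). The shares of CD8 T cell, B cell, NK cell and macrophage markers overlapped between the groups and were each at most 0.00554%, with the macrophage gene C1qa and the NK cell gene Klra8 at 0. Of 3 erythroid markers 2 had a row, and none passed the filter on low counts. Their share was 0.000134% to 0.000378% after anti-PD-1 and 0% to 0.00012% untreated, without overlap. The part of these shares in the values of the 6 genes was not tested, and in sorted bulk samples fewer expressing cells and less RNA per cell cannot be told apart. Total counts were 4766533 to 5219249 in the anti-PD-1 libraries and 5470816 to 6686774 in the untreated libraries.

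For each of the 6 genes, the 3 genes with the most similar course over the 6 libraries were taken from 8704 other genes of at least 5 CPM, by Pearson's r of log2 CPM. Each r was the highest of many over 6 libraries, whose differences in group and depth are common to all genes, and is a description. Among the 3 nearest to Tsc22d3 were Cic (r = 0.983) and Rnf44 (r = 0.978), with log2 fold changes of 0.23 and 0.26. Nearest to Nr3c1 were Rnf168 (r = 0.993), Syncrip (r = 0.985) and Smek2 (r = 0.981), and nearest to Fkbp5 were Tiam1 (r = 0.996), S100a11 (r = 0.989) and Eif2b3 (r = 0.982). Per1 was followed most closely by Rasgrp2 (r = 0.983), Mtss1 (r = 0.978) and Id3 (r = 0.971), which had log2 fold changes of 0.56, 1.01 and 1.49. For Sgk1 these were Frmd6, Cdca4 and Eif4enif1 (r from 0.993 to 0.998), and for Ddit4 they were Nrbp1, Ifnar2 and Parp9 (r from 0.975 to 0.982). No gene appeared for more than 1 of the 6, and none of the 6 was among the nearest of another.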

How the data were processed

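RNA of sorted tumor Tregs was sequenced in 3 anti-PD-1 and 3 untreated libraries, made with the NuGEN Ovation SoLo kit per the labels' protocols. The authors deposited counts, not normalized, of the fragments on each gene, made by running featureCounts 1.5.2 in a strand-specific mode against UCSC's mm10 genes, per the file headers, together with each gene's length in bases. Per the submitters' processing notes, bcl2fastq, FastQC and DESeq2 belonged to the work too, with no role stated. Alignment settings and any removal of duplicates are not stated in the labels. 1 further column without a name, with 6 values, was not used, and 27 symbols that a spreadsheet had turned into dates were left as they stood.

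Genes were filtered by edgeR's filterByExpr (a count of 10, and 15 in total), library totals were retaken over the genes kept, and the counts were scaled by TMM and tested with edgeR 4.0.16 in R 4.3.3 (glmQLFit with robust shrinkage, glmQLFTest, two-sided, treatment as the only term), and p-values of all tested genes were adjusted together by Benjamini-Hochberg, with a threshold of 0.05. CPM per library are TMM-scaled, and log2 CPM used a prior count of 2. Alternatives were DESeq2 1.42.0 after the same filter, limma-voom (limma 3.58.1) with and without quality weights, edgeR's non-robust fit, its older quasi-likelihood fit (added after the data were seen), other scalings and filters, and leaving out each library. On 1 simulated set of counts with known changes, edgeR, limma-voom and DESeq2 each gave fold changes close to the true ones. DESeq2 made the highest share of false calls there and limma-voom the lowest. The set was drawn with edgeR's own dispersion estimates, so it cannot rank the tools for the real counts. The counts of any 2 libraries differed by a chi-square of 8.66 to 25.6 per degree of freedom, so none was counted as a copy of another.

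The 6 genes and all lists were chosen with earlier results of these data known. The rule for named genes takes the 6 genes, up to 4 genes of each list by smallest unadjusted p and any that passed, and the 3 genes most similar to each of the 6. Beyond it, Dusp1, Nfkbia, Klf9, Il7r, Mt1, Mt2, Anxa1, Rgs2, the cell markers and the genes with few or no counts were named after their values were seen. 2 genes that the rule takes are not reported here. 2 of the 152 list genes outside the 6, besides stress genes, had no row under their symbol.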

Additional observations from a re-analysis of the deposited data

How the results depend on the processing

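No paired analysis was possible because anti-PD-1 and untreated libraries share no replicate number. With groups of 3, no test for an outlying library was made. edgeR's count of 3 genes passing was 23 with DESeq2, 5 with limma-voom, 12 with quality weights, 5 without robust shrinkage, 5 with upper quartile scaling, 7 with library totals only, 52 without a filter, 5 at a mean of at least 5 CPM, and from 1 to 19 when 1 library was left out (1 without anti-PD-1 5, 19 without untreated 1). Of the 6 genes, the count passing was 1 with DESeq2 and 1 without a filter, and 0 to 1 when 1 library was left out, the gene being Tsc22d3 each time. The median log2 fold change of the 6 ran from 0.0274 (without untreated 3) to 0.177 (without anti-PD-1 5), and that of the other induced genes from 0.0368 (without anti-PD-1 4) to 0.163 (without untreated 1). For the repressed genes the median was 0.061 with quality weights, -0.296 without a filter, and -0.129 to 0.226 when 1 library was left out. The median without a filter is over 23 repressed genes, beside 11 in the reported fit, and so takes in genes that the filter on low counts removes. Signs that turned were those of genes near 0 or scarce. With quality weights Sgk1 stood at 0.0234, Frmd6 at 0.024, Cdca4 at 0.131 and Eif4enif1 at 0.0168. When 1 library was left out, Sgk1 ran from -0.125 to 0.0754, Frmd6 from -0.157 to 0.105, Cdca4 from -0.358 to 0.278, Eif4enif1 from -0.144 to 0.071 and Nr1d1 from -0.186 to 1.55. The cause was not tested. Nr3c1, Tsc22d3, Fkbp5, Per1 and Ddit4 kept their sign in all 17 alternatives. Other scalings moved the median of all genes by less than 0.04 (log2). Depth limits Fkbp5 most, with 99 counts in its lowest library.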
